A study of Mus musculus with 6 samples.

Results

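The genes described here encode the enzymes that make cholesterol and fatty acids, together with the proteins that control sterol supply. The 31 genes were chosen by symbol from known pathway membership, with earlier results of these data known. All 31 were present among the 20637 genes listed for each library. They comprise 18 sterol enzymes, 5 regulators and transport proteins of the sterol pathway, and 8 enzymes of fatty acid synthesis, elongation and desaturation. Expression was measured by sequencing of poly(A) RNA from whole uteri of female mice on postnatal day 21, around the age of weaning. The control group (Nat10 f/f, 3 libraries) carried the Nat10 alleles written f/f in the labels, and the deleted group (Nat10 d/d, 3 libraries) carried those written d/d. Nat10 encodes an acetyltransferase that places acetyl groups on cytidines in RNA. The Cre driver, the cells in which deletion took place, the strain and whether each library came from a separate animal are not given in the sources used here. The p-values below therefore measure the spread between these libraries, some of which may be technical.

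Cholesterol is built from acetyl-CoA through mevalonate, isoprenoid pyrophosphates, squalene and lanosterol. When sterols in the endoplasmic reticulum run low, Insig proteins let go of the escort protein Scap and its cargo, the transcription factor Srebf2 (SREBP2). Processed Srebf2 then raises transcription of nearly every enzyme of the chain, and of Insig1 itself. Srebf1 (SREBP1) acts mainly on the fatty acid branch, in which Acly supplies cytosolic acetyl-CoA, Acaca makes malonyl-CoA and Fasn makes palmitate, which elongases and desaturases then modify. Both branches feed membrane growth in dividing cells and lipid stores in fat.

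Values are FPKM, that is, fragment counts scaled by transcript length and by the number of mapped fragments, so levels can be compared between genes. They summed to between 500764 and 549263 per library, and 15431 to 15680 genes had a value above 0. The absolute depth is unknown, so no counting intervals are given. In the targeted gene, Nat10, the f/f libraries had 13.2, 16.4 and 9.95 FPKM and the d/d libraries 5.57, 5.23 and 5.53, so the groups did not overlap. Markers of smooth muscle, stroma and epithelium were present in all 6 libraries, with summed levels of 4190 to 5320, 2650 to 3760 and 843 to 1120 FPKM. The 10 ovarian and steroidogenic markers summed to 25.7 to 38.1 FPKM per library. Of these, Cyp17a1, Cyp19a1 and Fshr were listed at 0 in all 6 libraries, while Foxl2 (18.1 to 28.9 FPKM), Inha, Star, Cyp11a1 and Amh were above 0 in all 6.

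No difference between Nat10 d/d and f/f uteri was detected in either branch of lipid synthesis. The limma fit used did not call Nat10, the targeted gene, either (adjusted p 0.669), so a lack of calls does not show equal levels. All 31 genes passed the filter on low values (at least 1 FPKM in at least 3 libraries), and 0 of them passed an adjusted p of 0.05 in limma, where 0% of the 12640 genes tested passed. At an unadjusted p under 0.05 there was 1 member of 31, Pmvk, against 4.98% of all genes tested. It was higher in d/d libraries (2.68% of all genes), and 0 members were lower (2.3%). After quantile normalization, median centring or upper-quartile scaling, the 1 member under that p was Fasn instead, which was lower (p of 0.0451 to 0.0478), and Pmvk was above it. Pmvk was also the 1 member whose groups did not overlap, against 10.7% of all genes tested. By direction, 1 member was higher without overlap (6.12% of all genes) and 0 were lower (4.6%). The median log2 change was 0.24 over the 18 sterol enzymes, 0.02 over the 5 regulators and transport genes and -0.06 over the 8 fatty acid enzymes, beside 0.03 over all genes tested. By mean log2(FPKM + 1), 14 sterol enzymes were higher in d/d libraries and 4 were lower, and 56.6% of all genes tested were higher. The sterol median rested on Nat10 d/d replicate 2: without that library it was -0.03, and without d/d replicate 3 it was 0.43. Without control replicate 3 it was 0.09. The median of the fatty acid enzymes was -0.23 without d/d replicate 2 and 0.05, with the sign turned, without d/d replicate 1. That of the regulators lay between -0.10 (without d/d replicate 2) and 0.08 (without d/d replicate 1). For the sterol enzymes the standard deviation of log2(FPKM + 1) had a median of 0.49 among d/d libraries and 0.205 among controls, beside 0.208 and 0.123 over all genes tested. No compartment marker passed an adjusted p of 0.05 in limma. All 8 stroma markers had a lower mean log2(FPKM + 1) in d/d libraries (median log2 change -0.45; 2 with a limma unadjusted p under 0.05, 2 without overlap). Of 10 epithelial markers, 8 were higher on this scale (median 0.19; 2 with a limma unadjusted p under 0.05, 4 without overlap). Of 8 smooth muscle markers, 4 were higher and 4 lower (median -0.006), and all 6 tested blood markers were lower (median -0.97), with 0 under an unadjusted p of 0.05 in either list. The part of these markers in the sterol and fatty acid medians was not tested. In whole tissue, fewer cells of a type and less RNA per cell cannot be told apart.

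**Figure D1:**
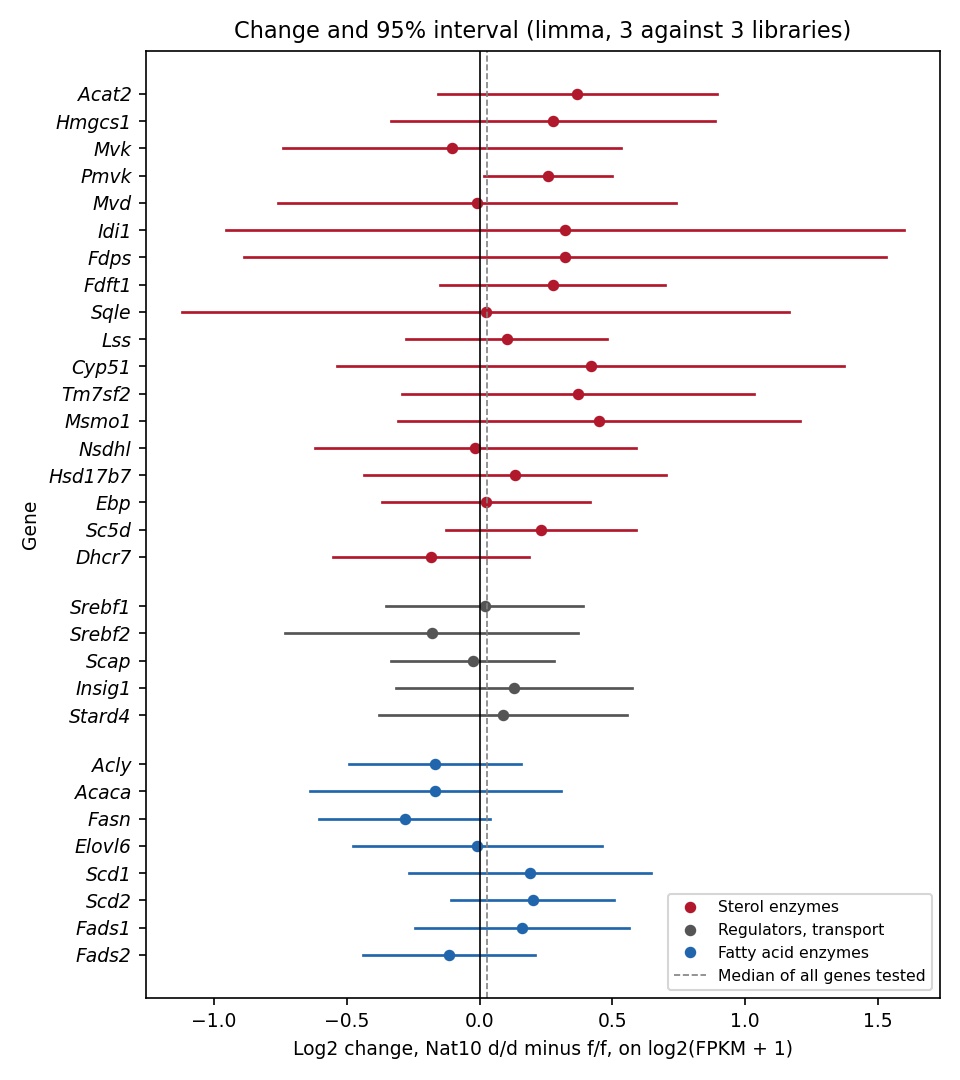
Log2 change of each member (Nat10 d/d minus f/f, on log2(FPKM + 1)) with its 95% interval from limma, 3 libraries against 3; the dashed line is the median of all genes tested (0.03). The interval of Pmvk alone lies above 0 (0.02 to 0.50), and those of Idi1, Fdps and Sqle are the widest.

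The promoters of the sterol enzymes share a sequence feature that the choice of genes did not use. RefSeq promoter windows on build GRCm38.p6, which holds the same sequence as mm10, were matched by symbol to 24 of the 31 members. Each window spans 250 bases before and 50 after a RefSeq transcription start. For 22 of the 24 genes a RefSeq start lay within 50 bases of a GENCODE start. The exceptions were Idi1 and Fads2, whose RefSeq starts lay 105 and 243 bases downstream. The letters CCAAT, on either strand, are bound as the CCAAT box by the factor NF-Y, which acts together with SREBP proteins at sterol genes. They occurred in a window of 14 of the 15 matched sterol enzymes, or 93.3%, against 41.1% of all 27025 genes with a window. At least 2 copies in 1 window were found for 9 of these 15 genes (60% against 13.3% of all genes). The letters were also held by 3 of the 4 matched regulators (75%) and by 2 of the 5 matched fatty acid enzymes (40%). The core of the sterol regulatory element, searched as CACCCCAC on either strand, was found in Hmgcs1 and Acat2, or 2 of 15 sterol enzymes (13.3% against 3.3% of all genes). A looser form, CACCCNAC, which includes every CACCCCAC, was found in 3 of the 15 (20% against 5.84%). The E-box CACGTG, which reads the same on both strands, was found in 3 of the 15 sterol enzymes, in 2 of the 4 matched regulators (Insig1 and Scap) and in 0 of the 5 fatty acid enzymes, against 8.09% of all genes. A match shows only that these letters are in the window.

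Upstream stretches are shown for members at both ends of this range, written 5′ to 3′ on the gene's strand, with CCAAT (or ATTGG, its reverse complement), CACCCCAC and CACGTG in capitals; other CACCCNAC matches are not marked. Only bases before the start that lie in no annotated exon are printed. Hmgcs1 (chr13:119690101-119690350, plus strand), which condenses acetoacetyl-CoA to HMG-CoA, holds both the sterol element core and CCAAT boxes, and its RefSeq start lies 28 bases upstream of the GENCODE start. Mvk (chr5:114444061-114444268, plus strand), mevalonate kinase, holds 5 CCAAT boxes, beginning at positions -173, -120, -67, -50 and -14 from the start, and 0.311% of all genes hold as many in 1 window. Pmvk (chr3:89454291-89454540, plus strand) is the member whose groups did not overlap. Ebp (chrX:8193513-8193762, minus strand), a sterol isomerase on the X chromosome, holds a pair of CCAAT boxes. Insig1 (chr5:28071162-28071362, plus strand) holds a CCAAT box and an E-box. Fasn (chr11:120824548-120824797, minus strand) holds 3 CCAAT boxes, of which a pair overlap on opposite strands, and Acly (chr11:100528001-100528250, minus strand) holds none of these letters before its start.
Hmgcs1: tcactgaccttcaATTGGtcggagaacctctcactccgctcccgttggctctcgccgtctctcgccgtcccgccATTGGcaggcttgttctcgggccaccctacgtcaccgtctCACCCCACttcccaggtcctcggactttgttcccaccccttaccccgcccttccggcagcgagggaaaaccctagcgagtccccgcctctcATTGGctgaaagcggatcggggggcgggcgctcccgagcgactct
Mvk: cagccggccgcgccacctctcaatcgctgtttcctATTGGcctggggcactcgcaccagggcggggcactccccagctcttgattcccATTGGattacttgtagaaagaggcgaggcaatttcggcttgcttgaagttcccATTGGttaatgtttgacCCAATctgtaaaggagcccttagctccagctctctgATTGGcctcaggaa
Pmvk: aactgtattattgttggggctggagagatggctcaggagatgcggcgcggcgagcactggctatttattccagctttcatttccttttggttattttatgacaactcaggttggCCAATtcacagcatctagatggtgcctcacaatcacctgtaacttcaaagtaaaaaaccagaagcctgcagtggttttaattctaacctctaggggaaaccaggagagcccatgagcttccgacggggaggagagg
Ebp: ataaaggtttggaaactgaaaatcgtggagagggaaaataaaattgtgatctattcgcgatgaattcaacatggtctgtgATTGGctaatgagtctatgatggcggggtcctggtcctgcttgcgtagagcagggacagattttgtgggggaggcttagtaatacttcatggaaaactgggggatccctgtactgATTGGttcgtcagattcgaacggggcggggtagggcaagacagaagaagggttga
Insig1: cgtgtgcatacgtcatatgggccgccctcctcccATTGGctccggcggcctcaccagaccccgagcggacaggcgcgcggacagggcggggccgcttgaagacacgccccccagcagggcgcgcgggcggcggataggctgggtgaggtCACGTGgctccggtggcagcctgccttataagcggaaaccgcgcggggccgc
Fasn: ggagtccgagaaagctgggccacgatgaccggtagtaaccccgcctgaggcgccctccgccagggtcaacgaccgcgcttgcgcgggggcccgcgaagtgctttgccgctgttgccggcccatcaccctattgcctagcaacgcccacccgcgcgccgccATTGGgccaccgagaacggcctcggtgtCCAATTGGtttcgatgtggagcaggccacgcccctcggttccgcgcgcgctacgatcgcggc
Acly: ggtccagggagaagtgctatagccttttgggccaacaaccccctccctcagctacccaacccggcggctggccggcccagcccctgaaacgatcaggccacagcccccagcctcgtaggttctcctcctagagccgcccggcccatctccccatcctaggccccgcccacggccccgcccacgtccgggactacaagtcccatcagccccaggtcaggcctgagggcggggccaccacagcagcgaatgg

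The early steps, from acetyl-CoA to mevalonate phosphates, were expressed at moderate levels. Acat2, the cytosolic thiolase that makes acetoacetyl-CoA, had 14.1, 16.2 and 11.1 FPKM in f/f replicates 1 to 3 and 16.2, 25.1 and 14.1 in d/d replicates 1 to 3. Hmgcs1 had 19.998, 23.3 and 13.0 FPKM in controls and 22.7, 29.6 and 16.5 in d/d uteri. In both genes d/d replicate 2 was the highest of the 6 libraries, control replicate 3 was the lowest, and the groups overlapped. Their log2 changes were 0.37 (SE 0.23) for Acat2 and 0.28 (SE 0.26) for Hmgcs1, with limma adjusted p of 0.922 and 0.945. Leaving out 1 library moved Acat2 between 0.14 (without d/d replicate 2) and 0.53 (without d/d replicate 3). Hmgcs1 moved between 0.05 (without f/f replicate 3) and 0.49 (without d/d replicate 3). Mvk had 15.2, 13.5 and 11.2 FPKM in controls and 9.59, 19.8 and 9.47 in d/d uteri, so that d/d replicates 1 and 3 lay below every control and d/d replicate 2 above. Its log2 change was -0.10 (SE 0.27), and it was -0.43 without d/d replicate 2.

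Pmvk (phosphomevalonate kinase; chr3:89454541-89469013, plus strand, GRCm38) differed from the other sterol enzymes in its order of libraries. Its values were 19.1, 19.9 and 20.4 FPKM in controls and 25.8, 23.4 and 22.4 in d/d uteri, which did not overlap. The means were 19.8 ± 0.645 and 23.9 ± 1.77 FPKM (SD, n = 3 each), or 121% of control. The log2 change was 0.26 (SE 0.10, 95% interval 0.02 to 0.50), with a limma unadjusted p of 0.0397. The adjusted p was 0.922. The unadjusted p was between 0.0659 and 0.0747 after quantile normalization, median centring or upper-quartile scaling, and between 0.0751 and 0.132 without any 1 control. It was 0.119, 0.0409 and 0.0294 without d/d replicates 1, 2 and 3, and 0.0649 with replicate number as a block. Mvd, which decarboxylates mevalonate pyrophosphate, was lower, at 4.23, 5.24 and 3.02 FPKM in controls and 2.57, 7.30 and 3.35 in d/d uteri.

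The isoprenoid and squalene steps varied most between libraries. Idi1 (chr13:8885501-8892451, plus strand), the isomerase that interconverts the isoprenoid building blocks, had 6.95, 7.68 and 2.85 FPKM in controls and 7.19, 16.0 and 2.72 in d/d uteri, a range of 5.9 times from the lowest to the highest library. Fdps (chr3:89093588-89101959, minus strand), which makes farnesyl pyrophosphate, had 17.2, 25.1 and 12.4 FPKM in controls and 19.9, 51.4 and 10.4 in d/d uteri. Sqle (chr15:59315077-59331192, plus strand), squalene epoxidase, had 8.07, 15.7 and 6.13 FPKM in controls and 8.90, 19.6 and 4.57 in d/d uteri. All 3 genes were highest in d/d replicate 2 and lowest in d/d replicate 3, and among controls all 3 were highest in replicate 2 and lowest in replicate 3. The 95% intervals of the log2 change were wide, at -0.96 to 1.596 for Idi1, -0.89 to 1.53 for Fdps and -1.12 to 1.17 for Sqle, so that 0 and a rise of 1 log2 unit both lay within them. Without d/d replicate 2 the log2 changes of Idi1, Fdps and Sqle were -0.22, -0.27 and -0.47. Fdft1, squalene synthase, varied less, with 9.63, 10.97 and 8.71 FPKM in controls and 13.1, 14.5 and 9.02 in d/d uteri. Part of the annotated exons of Fdps (26.7%) and Fdft1 (18.3%) is shared with Gm43738 and Ctsb. The authors' counting could have assigned those reads to either gene.

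**Figure D2:**
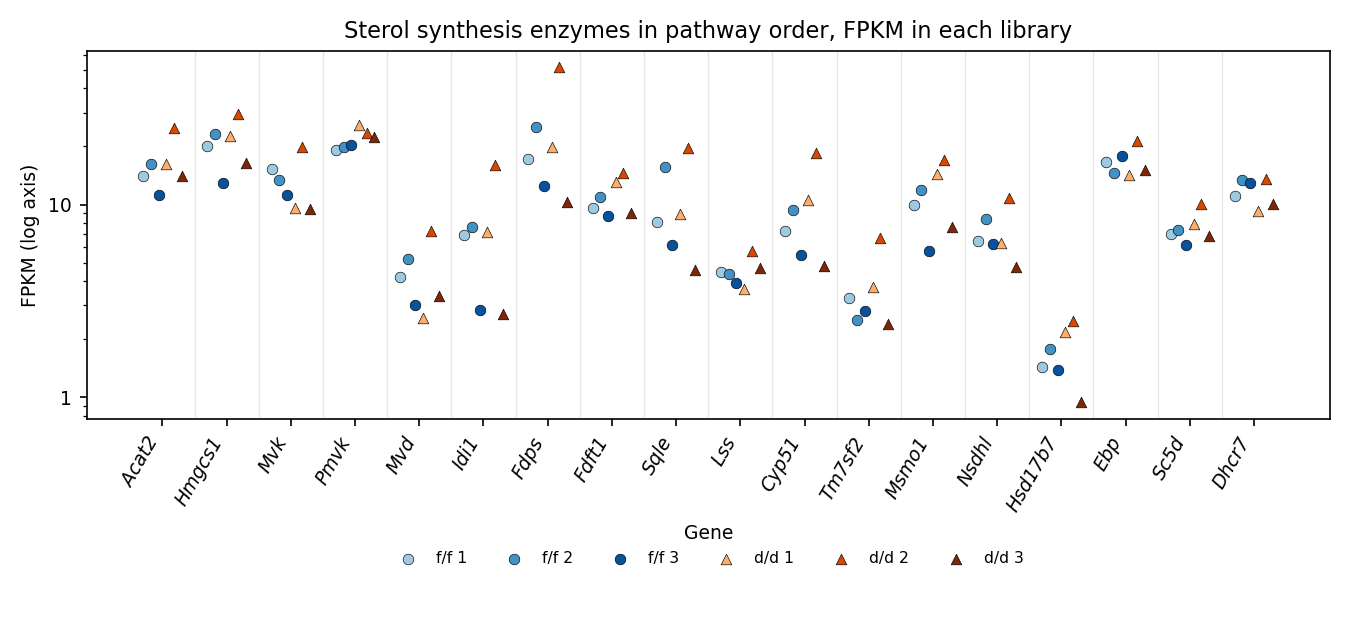
FPKM (log axis) of the 18 sterol enzymes in the order of the pathway; circles are the 3 f/f libraries and triangles the 3 d/d libraries. In 17 of the 18 genes d/d replicate 2 is the highest point, the exception being Pmvk.

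From lanosterol to cholesterol, d/d replicate 2 was again the highest library in every enzyme, while the lowest library differed between genes. Cyp51, which removes the lanosterol methyl group, had 7.27, 9.37 and 5.47 FPKM in controls and 10.6, 18.6 and 4.82 in d/d uteri. Msmo1 (chr8:64718139-64733792, minus strand), the sterol methyl oxidase, had 9.94, 11.8 and 5.75 FPKM in controls and 14.5, 16.9 and 7.69 in d/d uteri. The log2 change of Msmo1 was 0.45 (SE 0.32, 95% interval -0.31 to 1.204), with a limma adjusted p of 0.926. It was 0.18 without f/f replicate 3, 0.24 without d/d replicate 2 and 0.76 without d/d replicate 3. Tm7sf2, a sterol reductase, was at 2.51 to 3.29 FPKM in controls and at 3.72, 6.70 and 2.40 in d/d uteri. Nsdhl, Hsd17b7, Lss and Sc5d ranged from 0.94 (Hsd17b7) to 10.8 FPKM (Nsdhl) over the 6 libraries and had their lowest values in d/d replicate 3 (Nsdhl, Hsd17b7), d/d replicate 1 (Lss) or f/f replicate 3 (Sc5d). Ebp had 16.6, 14.5 and 17.9 FPKM in controls and 14.2, 21.3 and 15.0 in d/d uteri. Dhcr7, which completes cholesterol, had 11.1, 13.4 and 12.9 FPKM in controls and 9.20, 13.6 and 10.1 in d/d uteri. Both were lowest in d/d replicate 1. Ebp and Dhcr7 ranged by 1.49 and 1.47 times over the 6 libraries, against 5.9 times for Idi1 and 4.96 times for Fdps.

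Many sterol enzymes shared their high and low libraries. The comparisons of single libraries in this paragraph were chosen after the values were seen and are descriptions of these libraries. Nat10 d/d replicate 2 was the highest of the 6 libraries in 17 of the 18 sterol enzymes, where this held for 30.1% of all genes tested. It lay above every control in 18 of 18, against 38.4%. It had at least 2 times the level of d/d replicate 3 in 10 of 18, against 5.62%. Those 10 were Mvk, Mvd, Idi1, Fdps, Sqle, Cyp51, Tm7sf2, Msmo1, Nsdhl and Hsd17b7. Nat10 d/d replicate 3 lay below every control in 9 of 18, against 25.5%. A smaller ordering was present among the controls, which share a genotype: in 12 of 18 genes replicate 2 was the highest and replicate 3 the lowest, against 21.5% of all genes tested. The highest control had at least 1.5 times the level of the lowest in 7 of 18, against 13.7%. The median distance of the 18 genes from the control mean was 0.03, 0.20 and -0.18 log2 units in f/f replicates 1 to 3. It was 0.21, 0.61 and -0.20 in d/d replicates 1 to 3.

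**Figure D3:**
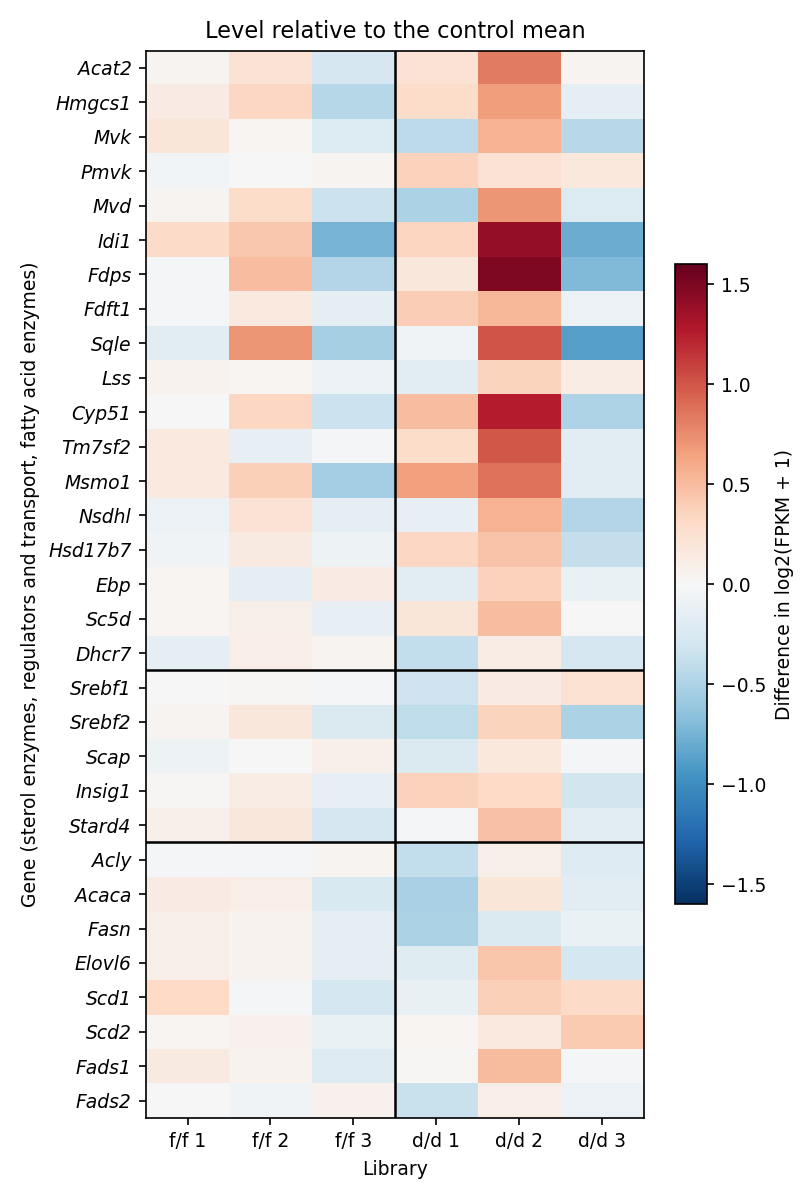
Level of each member in each library as the difference in log2(FPKM + 1) from the mean of the 3 f/f libraries; rows are genes, with lines between sterol enzymes, regulators and transport, and fatty acid enzymes. The column of d/d replicate 2 is raised over nearly all sterol enzymes, and those of f/f replicate 3 and d/d replicate 3 are mostly lowered.

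The regulators ranged less between libraries than Idi1, Fdps and Sqle. Some other sterol enzymes ranged no more than Srebf2 (1.86 times from the lowest to the highest library), such as Pmvk (1.35), Dhcr7 (1.47) and Fdft1 (1.67). Srebf2 (chr15:82147181-82205379, plus strand) had 30.6, 34.1 and 25.3 FPKM in controls and 22.3, 38.6 and 20.7 in d/d uteri, with a log2 change of -0.18 (SE 0.24, limma adjusted p 0.954). That change was -0.45 without d/d replicate 2 and -0.02 without d/d replicate 3. Srebf2 was highest in d/d replicate 2, and d/d replicates 1 and 3 both lay below every control. Insig1, the sterol-sensing retention protein and itself a target of Srebf2, had 11.8, 12.8 and 10.6 FPKM in controls and 15.4, 14.9 and 9.36 in d/d uteri. Its values were thus above every control in d/d replicates 1 and 2 and below every control in d/d replicate 3. Scap had 19.7, 21.02 and 22.3 FPKM in controls and 17.7, 23.7 and 20.8 in d/d uteri, a range of 1.34 times. Srebf1 was nearly constant in controls, at 18.6, 18.9 and 18.4 FPKM, and had 14.7, 20.6 and 22.3 in d/d uteri. Stard4, which carries cholesterol between membranes, had 11.5, 12.4 and 8.78 FPKM in controls and 10.6, 15.3 and 9.34 in d/d uteri. Gene totals do not separate the Srebf1 isoforms, and mRNA levels do not show how much SREBP protein was processed.

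The 8 fatty acid enzymes summed to 298 to 373 FPKM per library, and the 18 sterol enzymes to 150 to 313. Scd2, a stearoyl-CoA desaturase, was the most abundant member, with 141, 146 and 128 FPKM in controls and 142, 154 and 185 in d/d uteri. Scd1, its paralogue, had 18.4, 14.2 and 11.8 FPKM in controls and 13.3, 19.3 and 18.3 in d/d uteri. The log2 changes were 0.20 (SE 0.13) for Scd2 and 0.19 (SE 0.20) for Scd1, with overlapping groups in both. Because Scd1 and Scd2 are close paralogues, the authors' quantification could have moved some reads between them. Fasn (chr11:120805846-120824547, minus strand) had 41.3, 39.997 and 34.8 FPKM in controls and 26.8, 32.8 and 35.7 in d/d uteri. The means were 38.7 ± 3.47 and 31.8 ± 4.55 FPKM (SD, n = 3 each), or 82.1% of control. Its log2 change was -0.28 (SE 0.14), with a limma unadjusted p of 0.0774 and an adjusted p of 0.922. Under the 3 other scalings named for Pmvk the unadjusted p was 0.0451 to 0.0478, and the adjusted p was 0.904 to 0.936. Nat10 d/d replicate 3 lay inside the control range, so the groups overlapped.

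Acly had 44.4, 44.2 and 46.6 FPKM in controls and 34.1, 48.1 and 39.1 in d/d uteri. Acaca had 9.06, 8.88 and 6.72 FPKM in controls and 5.39, 9.49 and 7.10 in d/d uteri. In both genes d/d replicate 1 was the lowest library and d/d replicate 2 the highest. Elovl6, the elongase that extends palmitate, had 11.2, 10.8 and 9.26 FPKM in controls and 8.98, 14.5 and 8.38 in d/d uteri. The desaturases of polyunsaturated fatty acids, Fads1 and Fads2, ranged from 30.1 to 49.6 and from 32.2 to 45.1 FPKM over the 6 libraries. All 95% intervals in this group included 0, and they reached from -0.64 (Acaca) to 0.65 (Scd1).

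**Figure D4:**
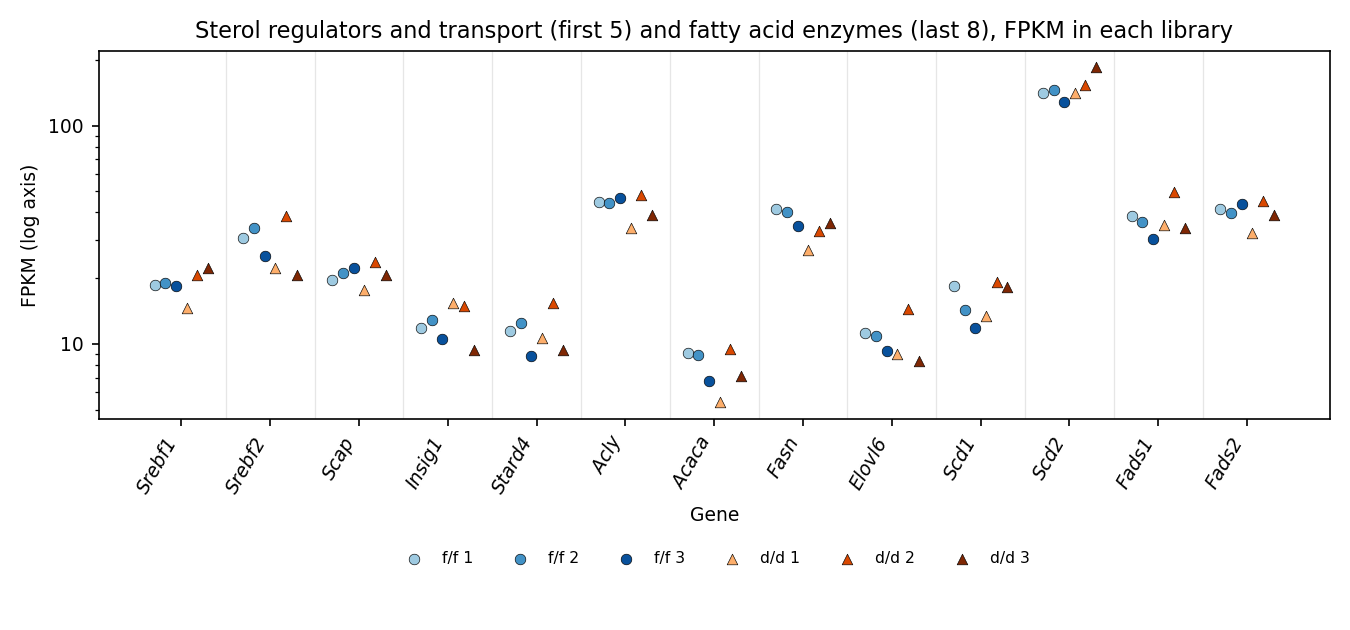
FPKM (log axis) of the 5 regulators and transport genes and the 8 fatty acid enzymes; circles are the 3 f/f libraries and triangles the 3 d/d libraries. In Acly, Acaca, Fasn and Fads2 the lowest point is d/d replicate 1, and in Scd2 the highest is d/d replicate 3.

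The order of libraries differed in part between the 2 branches. The comparisons of single libraries in this paragraph were also chosen after the values were seen. Control replicate 3 was the lowest control in 14 of 18 sterol and 6 of 8 fatty acid enzymes, against 4853 of 12640 genes tested. Nat10 d/d replicate 2 lay above every control in 18 of 18 and 7 of 8, against 38.4%. None of the 8 fatty acid enzymes had at least 2 times the level of d/d replicate 3 in d/d replicate 2, and 5.62% of all genes tested did, so that a count of 0 among 8 genes is near that background. The count was 10 of 18 for the sterol enzymes. Replicate 2 of the d/d group was the highest library in 6 of the 8, against 30.1% of all genes tested, the exceptions being Fasn and Scd2. Nat10 d/d replicate 1 exceeded d/d replicate 3 in 14 of 18 sterol enzymes and in 2 of 8 fatty acid enzymes, against 48.4% of all genes tested. It lay below every control in 5 of 8 fatty acid enzymes and in 5 of 18 sterol enzymes, against 31.9%. It lay above every control in 0 of 8 and 7 of 18, against 34.2%. Set against the mean of the controls, the fatty acid enzymes had medians of 0.10, 0.05 and -0.15 log2 units in f/f replicates 1 to 3. Those of d/d replicates 1 to 3 were -0.28, 0.18 and -0.10. The difference between the branches was not tested.

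The level of proliferation genes also differed between libraries. The 9 tested genes of the proliferation list, among them Mki67, had median distances from the control mean of 0.53, -0.82 and 0.02 in f/f replicates 1 to 3. They were -0.92, 1.83 and -1.50 in d/d replicates 1 to 3. The summed level of all 10 listed genes was 113 to 183 FPKM in controls and 102, 416 and 69.7 in d/d replicates 1 to 3. Among d/d libraries, the proliferation and sterol lists were thus both highest in replicate 2 and lowest in replicate 3. Among controls the orders differed, since replicate 2 was lowest for proliferation genes and highest for sterol enzymes. The part of proliferation in the sterol pattern was not tested.

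Fat carries high levels of the fatty acid enzymes, and its markers were uneven between libraries. The summed level of 10 adipocyte markers was 139 FPKM in f/f replicate 1 and 33 to 49.9 in the other libraries. Lpl, which muscle and stroma also express, made up 23.4 to 35.2 FPKM of these sums. Adipoq, the fat hormone adiponectin, had 4.71 FPKM in f/f replicate 1 and 0 to 0.614 elsewhere, and Lep was listed at 0 in every library but that one. At least 1 library was listed at 0 for 5 of the 10 markers. Without f/f replicate 1 the median log2 change of the fatty acid enzymes was -0.03, that of Scd1 was 0.35 and that of Fasn was -0.23. Blood markers ranged from 710 to 5590 FPKM in sum, and their part in these values was not tested.

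**Figure D5:**
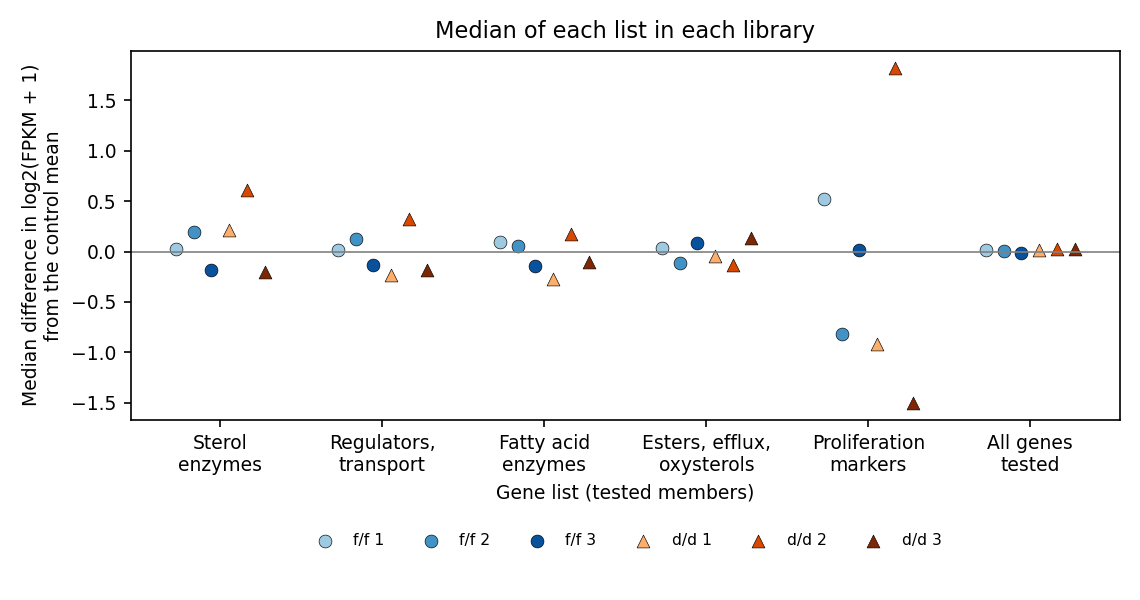
Median difference in log2(FPKM + 1) from the control mean in each library, for the tested members of 5 gene lists and for all genes tested; circles are f/f and triangles d/d libraries. The sterol enzymes reach 0.61 in d/d replicate 2 and the proliferation markers 1.83, while all genes tested stay near 0.

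Other genes of lipid metabolism were taken from 4 lists of 60 genes, of which 59 were listed and 55 tested. None passed an adjusted p of 0.05 in limma, 1 of 55 had an unadjusted p under 0.05 (4.98% of all genes tested), and the groups did not overlap in 4 of 55 (10.7% of all genes tested). Both shares were below those of all genes. The 1 gene was Thrsp, which encodes a nuclear protein that promotes fatty acid synthesis in liver and fat. It had 81.2, 68.2 and 75.3 FPKM in controls and 125, 94.6 and 100.1 in d/d uteri, or 142% of the control mean. Its log2 change was 0.50 (SE 0.14, 95% interval 0.17 to 0.82), with a limma unadjusted p of 0.00798 and an adjusted p of 0.922. By mean log2(FPKM + 1), 3 of the 8 fatty acid enzymes were higher in d/d libraries and 5 were lower, Elovl6 by -0.008. The other 3 genes without overlap were Ggps1 (119% of the control mean), Elovl4 (131%) and Stard3 (85.9%). Their limma unadjusted p-values were 0.112, 0.13 and 0.0902.

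Of the 13 tested genes of sterol esters, transport and oxysterols, 4 were lowest in d/d replicate 2, against 25.7% of all genes tested, a share near that background. The genes named in this paragraph were picked after their values were seen. Mylip, which marks lipoprotein receptors for degradation and is induced by the oxysterol receptors Nr1h2 and Nr1h3 (LXR), had 20.8, 18.4 and 21.4 FPKM in controls and 20.002, 11.4 and 30.7 in d/d uteri. Cyp27a1, which makes an oxysterol, had 32.4, 23.2 and 42.1 FPKM in controls and 42.7, 16.3 and 52.2 in d/d uteri. Abcg1, a cholesterol exporter, was low throughout and highest, at 4.67 FPKM, in d/d replicate 3. Over these 13 genes the median distance from the control mean was 0.03, -0.12 and 0.08 log2 units in controls. It was -0.05, -0.13 and 0.14 in d/d replicates 1 to 3. Hsd17b12, the ketoreductase of fatty acid elongation, was highest in d/d replicate 2 and lowest in d/d replicate 3, with 31.9, 35.1 and 25.0 FPKM in controls and 34.3, 55.0 and 21.3 in d/d uteri.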

How the data were processed

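Poly(A) RNA of whole uteri was sequenced from 3 Nat10 f/f and 3 Nat10 d/d libraries, grouped by the sample titles. The deposited values are FPKM that the authors made with HISAT2 2.2.1 and Cufflinks 2.2.1 on mm10, per the submitters' processing notes. The header names no unit, and FPKM was taken from the tool and from values that are not whole. The annotation, gene filter and strandedness are not given in the sources used here. Isoforms, paralogues (Scd1 and Scd2, Acat2 and its copies) and overlapping genes may have exchanged reads.

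From these, log2(FPKM + 1) was computed for 12640 genes with at least 1 FPKM in at least 3 libraries. The d/d and f/f libraries were set against each other in limma 3.58.1 (R 4.3.3; eBayes with trend, two-sided, Benjamini-Hochberg over all genes tested, threshold 0.05). Fold changes on this scale understate changes of low genes. Nat10 differed by -1.11 log2 units (SE 0.17), with an adjusted p of 0.669 in limma. Its exact two-sided permutation p was 0.1, the smallest that 3 against 3 allows. On simulated data for this comparison (12640 genes, 200 changed by 1.5 log2 units, 20 simulations), 95.8% of changed genes were called. Of the called genes, 5.32% were unchanged. The simulated noise was independent between libraries and between genes. The planted changes exceeded that of every member (0.45 at most, in Msmo1), so detection of changes of that smaller size was not tested. Tables were joined with Python 3.11.15 and pandas 2.3.3. Positions came from GENCODE M21, in which all 31 members matched by identifier, and promoters from RefSeq (GRCm38.p6). No 2 libraries were identical.

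The members and lists were chosen with earlier results of these data known. Values in every library are given for members without group overlap or with an unadjusted p under 0.05, for the regulators, for the most variable members of each branch, and further members were added by their place in the pathway. Other pathway genes are named where groups do not overlap and the unadjusted p is under 0.05, with additions marked as such. Alternatives were 3 other scalings, 2 other filters, a pseudocount of 0.1, no trend, array quality weights, a replicate block, and omission of single libraries.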

Additional observations from a re-analysis of the deposited data

How the results depend on the processing

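No member passed an adjusted p of 0.05 in limma under any of the 15 alternatives; the lowest adjusted p, 0.0532 for Pmvk, came with array quality weights. Those weights called 316 genes in all and put 10 members under a limma unadjusted p of 0.05. Under that p with these weights were also 3730 of 12640 genes tested, so the count of members is not particular to these lists. Nat10 then had an adjusted p of 0.0386 (log2 change -1.09). The adjusted p of Nat10 was 0.121 or more under every other alternative. Leaving out a library gave 0 to 12 called genes and 0 to 7 members under an unadjusted p of 0.05. The 12 came without d/d replicate 2 and the 7 without d/d replicate 3. Without d/d replicate 3, 1397 of 12551 genes tested were under that p. Without d/d replicate 2 these were 1700 of 12531 genes tested and 5 members. Over the alternatives that keep every library, the sterol median lay between 0.21 and 0.26, that of the regulators between -0.18 and 0.02 and that of the fatty acid enzymes between -0.25 and -0.06. Scalings moved the median of all genes by less than 0.1. Of genes with an unadjusted p under 0.05, 53.8% were higher in d/d, against 36.8% after upper-quartile scaling, 38.5% after quantile normalization and 39.7% after median centring. 

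Over all genes tested, deviations from the group means correlated at -0.34, -0.03 and 0.10 for replicate numbers 1, 2 and 3. Not every library correlated best with its own number. With 3 libraries per group, these values cannot decide whether the numbers pair the libraries. The sterol medians were highest in replicate 2 and lowest in replicate 3 in both groups. In the replicate block fit, 3 members (Acat2, Hmgcs1 and Msmo1) had a limma unadjusted p under 0.05 and 0 genes were called. Under that p in this fit were 726 of 12640 genes tested, while Pmvk was above it (0.0649).

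The signs of 18 of 31 members turned or reached 0 in at least 1 alternative, and not only where changes were small. The other 13 kept theirs in every alternative run. The log2 change reversed for Ebp (-0.01) and Srebf1 (-0.021) after quantile normalization, for Sqle (-0.005), Ebp (-0.004) and Srebf1 (-0.009) after median centring, and for Sqle (-0.013), Ebp (-0.015) and Srebf1 (-0.02) after upper-quartile scaling. With array quality weights it reversed for Sqle (-0.046), Lss (-0.125), Ebp (-0.153), Srebf1 (-0.244), Stard4 (-0.022) and Scd1 (-0.103). The cause was not tested. Leaving out 1 library gave log2 changes that reached or crossed 0 for Mvk -0.431 to 0.066, Mvd -0.366 to 0.242, Idi1 -0.222 to 0.876, Fdps -0.265 to 0.837, Sqle -0.467 to 0.476, Lss -0.025 to 0.24, Cyp51 0 to 0.876, Nsdhl -0.303 to 0.212, Hsd17b7 -0.029 to 0.393, Ebp -0.146 to 0.128, Srebf1 -0.096 to 0.192, Scap -0.125 to 0.079, Stard4 -0.102 to 0.227, Acaca -0.348 to 0.01, Elovl6 -0.234 to 0.128, Fads1 -0.009 to 0.259, Fads2 -0.229 to 0.008. For the other members the ranges were Acat2 0.136 to 0.532, Hmgcs1 0.046 to 0.485, Pmvk 0.202 to 0.301, Fdft1 0.147 to 0.463, Tm7sf2 0.055 to 0.645, Msmo1 0.178 to 0.761, Sc5d 0.097 to 0.343, Dhcr7 -0.335 to -0.078, Srebf2 -0.451 to -0.02, Insig1 0.012 to 0.344, Acly -0.298 to -0.056, Fasn -0.368 to -0.168, Scd1 0.047 to 0.349, Scd2 0.094 to 0.285. The absolute depth is unknown, which leaves the precision of low values such as those of Hsd17b7 unknown.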
